A study of Mus musculus with 13 samples.

Results

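Luminal epithelial cells line the ducts and alveoli of the mammary gland. They were the cells that 13 sorted stromal libraries were meant to exclude, and 179 of the 111246 barcodes kept in those libraries met a rule for them. The rule asked for 500 to 7500 detected genes, at most 10% mitochondrial UMIs (unique molecular identifiers, each standing for 1 captured RNA), at least 2 of Epcam, Krt8 and Krt18 detected, Krt8 plus Krt18 UMIs at or above Krt14 plus Krt5 UMIs, at most 10 Dcn UMIs per 10000, and no Pdgfra UMI. The levels of these 7 genes chose the members and are given as a description only. Levels are counts per 1000000 UMIs (CPM), summed over the cells named in a library, and brackets after them hold exact 95% Poisson intervals. Brackets after shares hold exact 95% binomial (Clopper-Pearson) intervals. Both cover counting error only.

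The study profiled mammary fibroblasts by droplet 3′ single-cell RNA sequencing, with 120355 barcodes in all before filtering. The stage libraries (1 each, so without a test) came from wildtype C57BL/6 females at puberty (4 weeks), as virgin adults (9 weeks), at pregnancy day 14.5, lactation day 10 and involution day 4. The hormone libraries (2 placebo, 2 MPA+E) came from wildtype C57BL/6 females of 9 weeks given placebo or medroxyprogesterone acetate with estradiol. These 9 libraries held live Lin-CD24- cells, sorted against the lineage markers CD31, CD45 and TER-119 and against CD24, with 2 females pooled per condition or replicate. The raGFP-Wnt1 libraries (2 hyperplasia, 2 tumour) held GFP+ cells of mice that carried 1 Pdgfra-GFP reporter allele and an MMTV-Wnt1 transgene on a mixed C57BL/6 and FVB background, in the hyperplasia group as in the tumour group. The MMTV promoter is active mainly in epithelium, so Wnt1 is driven there rather than in the sorted cells. Hyperplasia and tumour of the same number came from 1 mouse, aged 45 weeks for mouse 1 and 17 weeks for mouse 2. Every member was thus a cell that a gate against CD24 or for GFP should have removed, and how far the recovered cells represent the epithelium of each gland was not tested.

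Luminal cells fall into hormone-sensing cells, which carry receptors for estrogen, progesterone and prolactin and signal to their neighbours with ligands such as amphiregulin, and secretory cells with their progenitors, which differentiate into milk-producing alveoli in pregnancy. Prolactin acts on the secretory lineage through STAT5 and the transcription factor Elf5, and STAT5 binds a palindrome in the promoters of milk protein genes. After weaning the secretory cells die or regress during involution.

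Because levels of the milk protein genes by stage are described below, the parts of their promoters that hold the STAT5 palindrome are shown. The motif searched was TTCNNNGAA, which is its own reverse complement, so that 1 search covers both strands. The window ran from 250 bases before to 50 bases after each gene's start (RefSeq, build GRCm38.p6). Of 32851 windows of 300 bases, 2726 (8.3%) held it. Among the 8 milk protein genes, 6 had a window and 4 of these held the motif, and among the 13 hormone-sensing genes 12 had a window and 2 held it. A match describes the letters and was not tested as a site. The 4 matches of the milk genes lie at chr5:87666063-87666161 on the + strand (Csn1s1, starting at position -100 from the gene start), chr5:87774460-87774488 on the + strand (Csn1s2a, starting at position 21), chr5:87699465-87699563 on the - strand (Csn2, at -93) and chr15:103565173-103565271 on the - strand (Glycam1, at -145). Csn1s2a differs from the others in having its match after the gene start. The motif is in capitals, 5′ to 3′ along each gene:
Csn1s1: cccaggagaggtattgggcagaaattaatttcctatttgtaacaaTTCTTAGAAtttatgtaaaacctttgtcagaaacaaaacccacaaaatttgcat
Csn1s2a: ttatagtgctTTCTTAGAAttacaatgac
Csn2: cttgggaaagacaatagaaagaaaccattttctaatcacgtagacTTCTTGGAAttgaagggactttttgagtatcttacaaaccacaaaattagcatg
Glycam1: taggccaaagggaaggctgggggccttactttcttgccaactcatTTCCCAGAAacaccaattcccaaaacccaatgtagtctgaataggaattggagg

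Members were rare and unevenly spread. Pregnancy held 80 of the 179, followed by hyperplasia 2 with 26, MPA+E 1 with 25 and tumour 1 with 16. The other libraries held few, with 6 in involution, 5 each in hyperplasia 1 and tumour 2, 4 each in the adult and MPA+E 2, 3 in placebo 2, 2 each in puberty and placebo 1, and 1 in lactation. As a share of kept barcodes this was 0.603% [0.479 to 0.75] in pregnancy, 0.0238% [0.00288 to 0.0859] in puberty and 0.0312% [0.00849 to 0.0798] in the adult. The lactation share was 0.0112% [0.000283 to 0.0623], 1 barcode of 8947. The pregnancy interval lay above those of the other 4 stages, which overlapped one another. Near the limits of the rule, the highest Dcn value inside it was 9.96 per 10000 UMIs and the lowest outside it 10.01, and 52 barcodes stayed out by Dcn alone, 13 by Pdgfra alone and 604 by the balance of keratins alone.

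**Figure D1:**
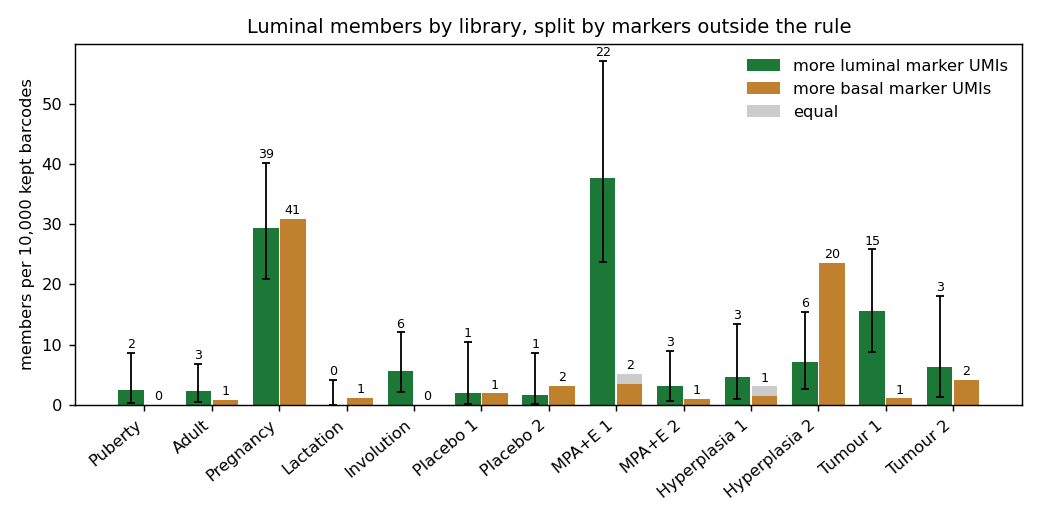
Members in each of the 13 libraries per 10000 kept barcodes (y axis), split into luminal-led, basal-led and equal members by markers outside the rule, with the numbers of luminal-led and basal-led cells over each bar and exact 95% intervals for the luminal-led share. MPA+E 1 has the highest luminal-led bar with 22 cells and pregnancy the next with 39, their intervals overlapping, and the basal-led bars are highest in pregnancy (41 cells) and hyperplasia 2 (20).

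The label did not hold for all members. Markers that the rule had not used were counted in each cell, with 13 luminal genes (Krt19, Krt7, Cldn3, Cldn4, Cldn7, Cdh1, Spint1, Spint2, Esrp1, Grhl2, Elf3, Ehf, Cd24a) on one side and 8 basal genes (Krt17, Acta2, Myh11, Oxtr, Trp63, Cnn1, Mylk, Tagln) on the other. The luminal genes gave more UMIs in 104 members, called luminal-led here, and the basal genes in 73, called basal-led, while 2 members had equal numbers. Few cells lay between, since 11 members had a luminal share of 0.25 to 0.75 of these marker UMIs. The 73 basal-led members passed on little keratin, with a median of 5 Krt8 plus Krt18 UMIs against 56 in luminal-led members, and 16 of the 73 had all of Epcam, Krt8 and Krt18 detected against 100 of 104.

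Basal-led members carried the contractile genes of myoepithelium. Acta2, a smooth muscle actin, stood at 8454 CPM summed over the basal-led members, against 15.1 in luminal-led members and 8459 in the 1086 barcodes chosen by the same rule with Krt14 plus Krt5 in the lead. Myh11, smooth muscle myosin, was at 986, 3.77 and 1009 in the same order. Krt19, a luminal keratin, went the other way with 11.2 in basal-led members, 1566 in luminal-led members and 32.9 in the Krt14 and Krt5 barcodes. Cldn3, a tight junction protein, stood at 2.24 against 651 in luminal-led members, and Cldn4 had no UMI in basal-led members against 412 CPM in luminal-led members. These differences follow from the split and were not tested. Basal-led members made up 41 of 80 members in pregnancy, 20 of 26 in hyperplasia 2 and the 1 member of lactation, but 2 of 25 in MPA+E 1 and 1 of 16 in tumour 1. Luminal biology is therefore described below in the 104 luminal-led members, with 39 in pregnancy, 22 in MPA+E 1, 15 in tumour 1, 6 each in involution and hyperplasia 2, 3 each in the adult, MPA+E 2, hyperplasia 1 and tumour 2, 2 in puberty, 1 each in placebo 1 and placebo 2, and none in lactation, where 0 of 8947 barcodes has an interval of 0 to 0.0412% and 3 cells would have been 0.0335%.

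**Figure D2:**
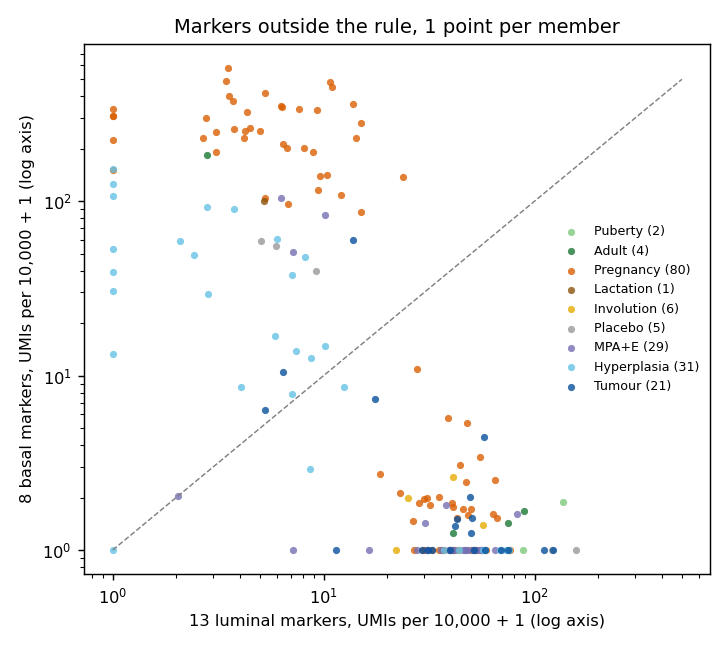
Each point is a member, with the 13 luminal markers outside the rule on the x axis and the 8 basal markers on the y axis (UMIs per 10000 plus 1, log axes), coloured by group with a dashed line of equal values. Most points lie far to one side of the line, and 11 of 179 have a luminal share between 0.25 and 0.75.

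Luminal-led members carried little of other cell types. They had no UMI of 4 adipocyte markers (Adipoq, Plin1, Cidec, Lep), 4 UMIs of 5 endothelial markers with Cdh5, Kdr and Emcn at 0, and 27 UMIs of 7 immune markers with Ptprc, Cd3e and Cd79a at 0. They had 2 UMIs of 5 muscle markers, 3 of 4 mesothelial markers, 54 of 4 pericyte markers, 41 of 4 Schwann cell markers and 173 of 5 keratinocyte markers. Fibroblast markers other than Pdgfra gave 634 UMIs, and per library the summed fibroblast list ranged from 0 to 624 CPM. The list stood at 44139 in fibroblasts, defined as barcodes with a Pdgfra UMI, over 10 Dcn UMIs per 10000 and no Epcam UMI. Cd24a, which encodes the antigen sorted against in the stage and hormone libraries, was at 446 CPM in luminal-led members and 4.89 in fibroblasts. Doublet scoring marked 4 luminal-led and 1 basal-led member. Between 5 and 51 barcodes were shared by each pair of libraries, 6 members had a barcode that occurs in another library, and no barcode was a member in more than 1. Totals of UMIs were 56551189 to 112550204 per library, and single members held 1001 to 54163.

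Genes outside the rule that set the members apart from fibroblasts in the median library were epithelial. The largest median log2 ratios of all members to fibroblasts belonged to Wfdc2 (9.37, higher in 12 of 13 libraries), a secreted protein of the whey acidic protein family, and to the iron-chelating protein Lcn2 (9.29, higher in 11 of 13). Sfn (8.31, higher in 13 of 13), Cldn4 (8.24), Fxyd3 (8.08), Spint2 (7.91), Ly6d (7.83), Plet1 (7.58), Krt7 (7.50) and Cldn7 (7.49) followed. In pregnancy, the group with the most luminal-led members, all 13 luminal genes outside the rule stood at least 2-fold above fibroblasts in those members. Of all 11765 genes with a UMI, 23.7% did.

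Milk protein genes were abundant in luminal-led members of pregnancy and involution and far lower or at 0 in the other libraries. The 8 genes (4 caseins of the calcium-sensitive kind, the micelle-stabilising kappa-casein Csn3, the whey proteins Wap and Lalba, and Glycam1) together took 66902 CPM [66224 to 67584] in pregnancy and 100815 [98861 to 102798] in involution. They took 857 [686 to 1057] in the adult, 0 of 20595 UMIs in puberty, and none in either placebo library. MPA+E 1 and 2 stood at 45.8 and 0, hyperplasia 1 and 2 at 5038 and 3038, and tumour 1 and 2 at 751 and 194, where Csn3 and Lalba were the 2 genes found in hyperplasia. Involution rested on 1 cell with 9535 of the 10126 milk UMIs, and without it the level was 7468. That is near hyperplasia 1, which stood at 6540 without its own cell of most milk UMIs. The 87 milk UMIs of the adult came from 1 cell of 47698 UMIs. Fewer cells of a type and less RNA per cell cannot be told apart in totals of this kind, so values per cell follow.

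In pregnancy the milk programme was shared by nearly all luminal-led cells but was uneven in strength. Milk protein UMIs made up 0 to 17.9% of a cell's UMIs, with a median of 4.96%, and 34 of 39 cells held over 100 of them. Csn2, beta-casein, was detected in 38 of 39 cells and in 37 after thinning every cell to 1000 UMIs, while 4.89% of the fibroblasts of that library had a Csn2 UMI, or 5 of 500 after thinning. Csn1s1 and Csn3 were each detected in 38 cells, Csn1s2a in 33 and Glycam1 in 30. Wap and Lalba, which are known to come on late, were each in 15 of 39 cells (38.5% [23.4 to 55.4]), or 8 and 5 after thinning. The median luminal-led cell of pregnancy had 10343 UMIs and the median fibroblast 4314.

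The order of the milk genes differed between pregnancy and involution, where it was set by 1 cell. In pregnancy the levels were 23214 CPM for Csn1s2a, 19088 for Csn2, 12389 for Csn1s1, 7101 for Glycam1, 4760 for Csn3, 231 for Wap, 111 for Lalba and 7.17 for Csn1s2b. In involution they were 30217 for Csn1s2a, 29321 for Csn2, 19006 for Wap, 9428 for Csn1s1, 7278 for Csn3, 2300 for Csn1s2b, 2151 for Lalba and 1115 for Glycam1. The cell with the most milk UMIs gave 44.8% of its 21301 UMIs to milk proteins, and the other 5 cells of involution held 25, 0, 208, 163 and 195 milk UMIs. It held 1895 of the 1909 Wap UMIs and all UMIs of Lalba (216) and Glycam1 (112). Without it Wap was at 177 CPM, under its level in pregnancy, Lalba and Glycam1 were at 0, where 3 UMIs would have been 37.9, and Csn2, Csn3, Csn1s1 and Csn1s2a were at 2982, 2135, 1440 and 619. No test was made with 1 library each.

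**Figure D3:**
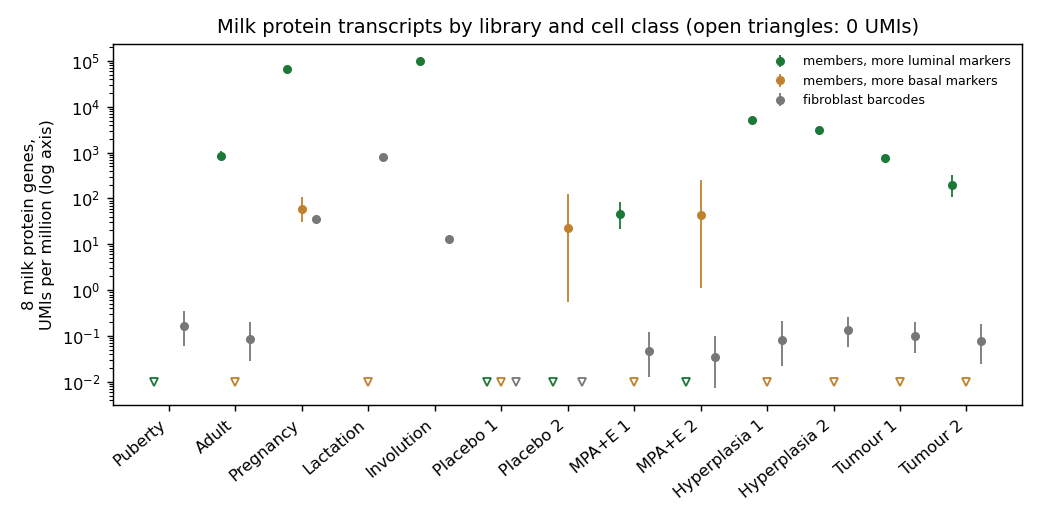
Milk protein CPM (8 genes, log axis) in luminal-led members, basal-led members and fibroblasts of each library, with exact 95% Poisson bars and open triangles where no UMI was found. Luminal-led members of pregnancy and involution stand at 66902 and 100815, and fibroblasts reach 802 in lactation and 35.6 in pregnancy.

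The secretory machinery accompanied the milk proteins. In pregnancy 17 of the 18 genes for secretion and milk fat stood at least 2-fold above fibroblasts in luminal-led members, as did 8 of 8 milk genes and 8 of 10 luminal progenitor genes, beside 23.7% of all genes with a UMI. Trf, which carries iron into milk, was at 3222 CPM, the lipid droplet coat protein Plin2 at 1502 and the fatty acid binding protein Fabp3 at 1305. Wfdc18, a secreted protein of the progenitor list, reached 15547 and was detected in 38 of 39 cells. Elf5, the alveolar transcription factor, was in 32 of 39 cells (7 after thinning) and 0.0834% of fibroblasts. Mki67 and Top2a, made in dividing cells, were in 15 and 14 of the 39 cells, 2 each after thinning, and 7 of 8 proliferation genes stood 2-fold or more above fibroblasts. Basal-led members of the same library had 11 milk UMIs in 41 cells, 60.2 CPM [30 to 108], where fibroblasts had 35.6.

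Among the 10 genes with the largest ratio of involution to the other stages were the granulocyte factor Csf3 (707 CPM, 4 of 6 cells), Spp1 (1553, 3 of 6 cells), Wfdc17 (1006, 5 of 6 cells) and Wfdc12 (3256, 2 of 6 cells), beside 6 milk genes. Lcn2 was at 4918, the lactoferrin gene Ltf at 3086, Trf at 7636 and the transcription factor Cebpb at 1424. Of the 12 genes in the list for involution and acute phase all had a UMI, none stood 2-fold above fibroblasts of that library, and 3 stood at 0.5-fold or less, beside 32.2% and 15% of all 8249 genes with a UMI. The genes of largest ratio in the other stages included Fgb, Pcp4, Ly6d, Cited1 and Tspan13 in puberty (2 cells) and Defb1, Aoc1, Fam25c and R3hdml in the adult (4 cells). Fgb and Pcp4 were each in 1 of the 2 cells, and Aoc1 and R3hdml each in 2 of the 4. By the count given below, hormone-sensing cells were 2 of 2 luminal-led cells in puberty, 3 of 3 in the adult and 1 of 39 in pregnancy. Cell type and stage cannot be told apart in this ranking. In pregnancy, over all 80 members, the 10 held 4 milk genes (Csn1s2a, Csn2, Csn1s1, Glycam1), Thrsp, a regulator of milk fat synthesis, and Il17b, Ecrg4, Igfbp2, Fabp5 and Actg2. Of these last, Il17b, Ecrg4, Igfbp2 and Actg2 came almost wholly from basal-led members: over all members of pregnancy they stood at 400, 246, 242 and 205 CPM, and in luminal-led members at 1.79, 3.59, 0 and 0, against 194 for Fabp5. In lactation 2 genes had the 20 UMIs asked for, Myh11 and H3f3b, both from 1 cell.

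Lactation gave no luminal-led member. Its 1 member had 4744 UMIs, no Epcam UMI, 2 Krt8 and 1 Krt18 UMIs, and 47 basal marker UMIs, with Myh11 at 5270 CPM. It had no milk protein UMI, where 3 UMIs would have been 632 CPM. The 7 Krt14 and Krt5 barcodes of that library held 163 milk UMIs, 5986 CPM [5102 to 6979], and the fibroblasts 802 [795 to 809]. The milk protein ratio of lactation to adult members was therefore 0, with an interval of 0 to 1.03, and it describes 1 basal-led cell.

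The lactation library did hold barcodes dominated by milk RNA. Of its 9525 deposited barcodes, 13 gave over 20% of their UMIs to milk proteins, and none was a member. Among the 13, 11 had under 500 genes, 11 had no UMI of Epcam, Krt8 or Krt18, and all had 0 Pdgfra UMIs. The 1 of them inside the limits on genes and mitochondrial UMIs held 7858 UMIs over 669 genes, 80.2% of them from milk proteins, with 2128 Wap, 1021 Csn2, 82 Wfdc18 and 81 Trf UMIs. Involution held 2 barcodes above the same 20% and no other library any.

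Hormone-sensing cells made up part of the luminal-led members. A cell was counted as hormone-sensing when its UMIs over 13 genes (Prlr, Esr1, Pgr, Foxa1, Cited1, Prom1, Tbx3, Greb1, Gata3, Areg, Wnt4, Tnfsf11, Calca) exceeded those over the 18 milk protein and progenitor genes, which held for 35 of 104 cells. They were 2 of 2 in puberty, 3 of 3 in the adult, 1 of 1 in each placebo library, 21 of 22 in MPA+E 1 (95.5% [77.2 to 99.9]) and 2 of 3 in MPA+E 2. They were 1 of 39 in pregnancy (2.56% [0.0649 to 13.5]), 1 of 6 in involution, 3 of 15 in tumour 1 (20% [4.33 to 48.1]) and none of 3, 6 and 3 in hyperplasia 1, hyperplasia 2 and tumour 2. The split left 9 cells with a hormone-sensing share of 0.25 to 0.75, and thinning to 1000 UMIs gave 35 again. The intervals of pregnancy and MPA+E 1 count cells of 1 library each and cover counting error only. Milk protein UMIs are part of the split, and a difference between the conditions was not tested.

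**Figure D4:**
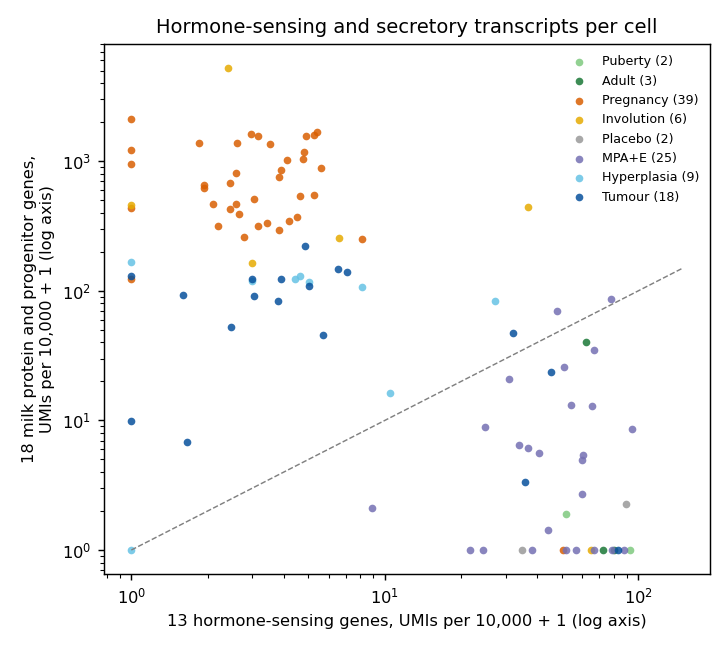
Each point is 1 of the 104 luminal-led members, with the 13 hormone-sensing genes on the x axis and the 18 milk protein and progenitor genes on the y axis (UMIs per 10000 plus 1, log axes), coloured by group with a dashed line of equal values. On the hormone-sensing side lie 21 of 22 cells of MPA+E 1 and all 7 of puberty, adult and placebo, and 38 of 39 pregnancy cells lie on the other.

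The summed level of the 13 genes, from which the split was made, was 6943 CPM in luminal-led members of puberty, 6963 in the adult, 3386 and 8825 in placebo 1 and 2, 5100 and 4362 in MPA+E 1 and 2, 285 in pregnancy, 1683 in involution, 1871 and 392 in hyperplasia 1 and 2, and 1421 and 116 in tumour 1 and 2. Fibroblasts ranged from 56.2 to 207, led by Esr1, Greb1, Pgr and Tbx3 with 48.2, 28.4, 22 and 18.7 CPM over all 13 libraries. Esr1, the estrogen receptor, was at 37.7 CPM in luminal-led members over all libraries, 3.59 in those of pregnancy and 112 in the 35 hormone-sensing cells. Over all libraries Prlr, the prolactin receptor, was at 763 CPM in luminal-led members and 5.83 in fibroblasts, Areg, the amphiregulin gene, at 385 against 1.32, and the pioneer factor Foxa1 at 53.5 against 0.00491. In hyperplasia 1 a single cell of 46936 UMIs gave 123 of the 127 hormone-sensing UMIs, and without it the level was 191.

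Genes outside the split differed between the hormone-sensing and the other luminal-led cells as well, pooled over libraries and untested. Socs2, a target of STAT5, was at 306 CPM against 36.5, Stat5a at 203 against 61.6, the keratin Krt7 at 537 against 78.1 and the lysosomal protease Ctsd at 1173 against 229. On the other side Trf was at 25.1 against 2929, Plin2 at 82.3 against 865, Fabp3 at 0 against 645, the epithelial factor Ehf at 45.7 against 344, Mki67 at 2.29 against 101 and Ccnd1 at 231 against 646. The prolactin to STAT5 axis was mixed, with Stat5b at 80 against 39.1, Cish at 52.6 against 47.7 and Nfib at 190 against 592. The involution and acute-phase list, which holds Ctsd, was mixed too, with Cebpd at 137 against 549 and Igfbp5 at 135 against 615. Since 21 of the 35 hormone-sensing cells came from MPA+E 1 and 38 of the 69 others from pregnancy, cell type and library cannot be told apart in these sums.

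**Figure D5:**
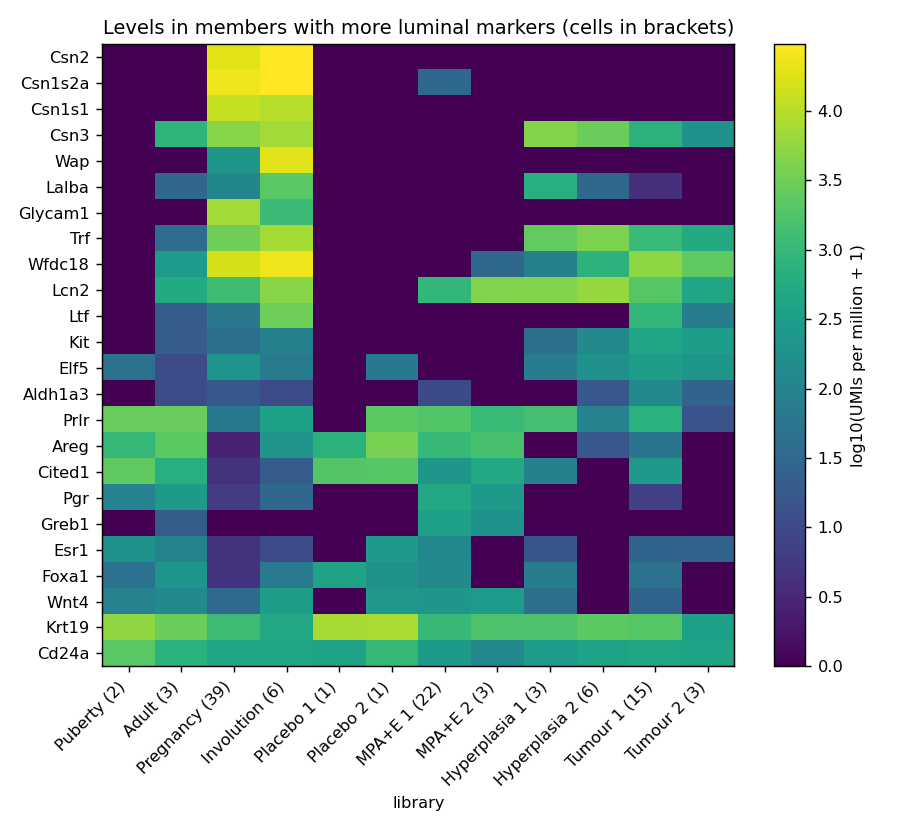
Levels of secretory, progenitor and hormone-sensing genes in luminal-led members of 12 libraries, as log10 of CPM plus 1, where brighter colours are higher and brackets hold cell numbers. Milk protein genes are brightest in pregnancy and involution, Prlr and Areg are bright in puberty and the adult, and Pgr and Greb1 are brightest in MPA+E.

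MPA+E tested what a progestin with estradiol does to the gland. Members numbered 3.75 and 4.62 per 10000 kept barcodes in the placebo libraries and 42.9 and 4.06 in the MPA+E libraries. The excess was in 1 library, and MPA+E 2 lay between the 2 placebo values. Without basal-led members the placebo libraries held 1.88 and 1.54 and the MPA+E libraries 39.5 and 3.05, which did not overlap (difference 19.5, p = 0.333, exact permutation test, n = 2 against 2). The 3.05 of MPA+E 2 was 3 luminal-led cells, against 1 in each placebo library. Its interval [0.00628 to 0.089%] overlapped those of placebo 1 [0.000475 to 0.104%] and placebo 2 [0.00039 to 0.0858%]. At a mitochondrial limit of 5% all members numbered 2.05 and 1.69 against 23.3 and 4.6. The mean difference was 19.3 per 10000 (p = 0.667, exact permutation test, two-sided, n = 2 against 2, where the smallest possible p is 0.333), and without MPA+E 1 it was -0.124. Replicates are separate samples by their labels, and p-values measure only the spread between them.

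Known targets of the hormones were detected in luminal-led cells of both treated libraries. Greb1, an estrogen target, was at 343 and 188 CPM in luminal-led members of MPA+E 1 and 2, and Pgr, the progesterone receptor, at 508 and 251. Greb1 was detected in 17 of 22 and 1 of 3 of these cells, and Pgr in 18 of 22 and 2 of 3. Both were at 0 in the 1 luminal-led cell of each placebo library, where 3 UMIs would have been 1129 and 192 CPM. All 4 values under MPA+E lay under that limit of placebo 1, so a difference from it was not detectable at this depth, and 3 of the 4 lay above that of placebo 2. The placebo 1 cell had 0% mitochondrial UMIs, where the median luminal-led member had 5.42%. In untreated luminal-led cells Pgr was detected in 3 of 3 of the adult and 1 of 2 of puberty, and Greb1 in 1 of 3 and 0 of 2. In fibroblasts of the placebo libraries Greb1 was at 6.15 and 6.76 and Pgr at 9.53 and 13.4. Fibroblasts of the MPA+E libraries had Greb1 at 103 and 89.4 and Pgr at 39.8 and 61, all above the placebo values.

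Other hormone-sensing genes differed in direction. Cited1, a transcriptional co-regulator of hormone-sensing cells, was at 1881 and 2110 in the placebo cells and 234 and 502 under MPA+E. The placebo 1 value was 5 UMIs, and the MPA+E 2 value was 16 UMIs in 1 of 3 cells. Untreated luminal-led members had Cited1 at 2428 in puberty and 680 in the adult. Areg was at 752 and 3645 against 984 and 1506, and Prlr at 0 and 2238 against 1818 and 1067, so both overlapped. Tnfsf11, which encodes the progesterone-induced ligand RANKL, had 0 UMIs in both placebo cells and levels of 4.58 and 126 under MPA+E, where 3 UMIs of MPA+E 2 are 94.1 CPM. Both levels lay under what 3 UMIs would have been in either placebo cell, so a difference was not detectable at this depth. Wnt4, another such ligand, was detected in 0 of 1 and 1 of 1 cells under placebo and in 17 of 22 and 2 of 3 under MPA+E.

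The genes highest in MPA+E 1 against the 3 other libraries with at least 10 members included secreted and membrane proteins. Hormone-sensing cells were 21 of 22 luminal-led cells in MPA+E 1. They were 1 of 39 in pregnancy, 0 of 6 in hyperplasia 2 and 3 of 15 in tumour 1. Cell type and treatment cannot be told apart in this ranking. The beta-defensin gene Defb1 was in 22 of 22 cells at 4226 CPM, and at 4519 in MPA+E 2 and 3010 and 0 in placebo 1 and 2. Gpx3, a secreted glutathione peroxidase, was at 11854 and 9163 under MPA+E and 0 and 512 under placebo. Fibroblasts of the same libraries also had more Gpx3 under MPA+E, at 2537 and 2394 against 554 and 636. Luminal-led members of the untreated puberty and adult libraries stood between the luminal-led values of MPA+E and placebo, at 4807 and 4649 CPM of Gpx3. Prom2 was at 1048 and 659 against 376 and 0, the mucin Muc13 at 632 and 596 against 0 and 0, and Wfdc2 at 3965 and 3326 against 3386 and 2686. In untreated luminal-led members of puberty and the adult Defb1 was at 0 and 384 and Prom2 at 97.1 and 98.5. Muc13 was at 0 and 49.2 there and Wfdc2 at 1991 and 3004. For Gpx3 both MPA+E values exceeded the placebo 2 value and the 1129 CPM that 3 UMIs would have been in placebo 1, whereas for Prom2 and Muc13 the MPA+E values lay under that limit of placebo 1, and for Wfdc2 the groups overlapped. With 1 placebo cell per library no test across genes was made.

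Tumour and hyperplasia of raGFP-Wnt1 mice asked what epithelium came along with the sorted GFP+ stroma. Members numbered 7.62 and 30.7 per 10000 kept barcodes in hyperplasia 1 and 2 and 16.7 and 10.3 in tumour 1 and 2. The mean difference was -5.66 (p = 1, exact permutation test, two-sided, n = 2 against 2), with 9.07 within mouse 1 and -20.4 within mouse 2, and the groups overlapped. Leaving out basal-led members, 20 of the 26 in hyperplasia 2, turned the difference to 4.33.

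In luminal-led members, most genes of the involution and acute-phase list were lower in both tumour libraries than in both hyperplasia libraries. Most proliferation and luminal progenitor genes were higher in both, but these counts rested on 1 deep cell of tumour 2 and, in part, on genes without a UMI in hyperplasia. The summed progenitor list nevertheless overlapped, at 5023 and 7487 CPM in hyperplasia 1 and 2 and 9282 and 3618 in tumour 1 and 2. These sums held 67883 and 63848 UMIs in hyperplasia (3 and 6 cells) and 331380 and 77386 in tumours (15 and 3 cells). Of 3595 genes with at least 20 UMIs over these 4 libraries, 33.5% were higher in both tumour libraries than in both hyperplasia libraries and 14.3% lower. Of 8 luminal progenitor genes 6 were higher and 2 lower, of 6 proliferation genes 5 were higher and none lower, and of 11 involution and acute-phase genes none was higher and 7 lower. Of the 5 proliferation genes, Mki67 and Top2a had no UMI in the 9 luminal-led cells of hyperplasia. With values under 3 UMIs in the lower group set to the level of 3 UMIs, 26.8% of the 3595 genes were higher in tumours and 14.2% lower. By that count 2 of the 6 proliferation genes (Cdk1 and Ccnd1) and 5 of the 8 progenitor genes were higher, and 7 of the 11 involution and acute-phase genes lower. Without the deepest luminal-led cell of tumour 2, 25.1% of genes were higher and 14.5% lower, with 1 proliferation gene (Birc5) and 1 progenitor gene (Sox10) higher and 6 involution and acute-phase genes lower. Both counts were added after the values were seen. In hyperplasia 1 a single cell held 46936 of the 67883 UMIs, and no count was made without it. Whether the genes lower in tumours depend on that cell was not tested. Of 12 secretory genes 1 was higher and 5 lower, and both milk genes with enough UMIs (Csn3 and Lalba) were lower. Of 5 genes of the prolactin to STAT5 axis 4 were higher (Stat5a, Stat5b, Elf5 and Nfib) and none lower. Of 4 hormone-sensing genes none was without overlap. With the level of 3 UMIs set as above, Lalba was no longer lower and 3 axis genes (Stat5b, Elf5 and Nfib) were higher. Without the deepest luminal-led cell of tumour 2, 1 axis gene (Nfib) and no secretory gene was higher. No test was made, since fewer than 10 luminal-led cells stood behind 3 of the 4 libraries.

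Kit, the receptor of luminal progenitors, was at 44.2 and 125 CPM in hyperplasia and 422 and 323 in tumours. Wfdc18 was at 88.4 and 783 against 5142 and 2416. Ltf had no UMI in hyperplasia and stood at 935 and 77.5 in tumours, and 4 of 15 cells of tumour 1 held its 310 UMIs. Ccnd1, cyclin D1 and a known target of Wnt signalling, was at 383 and 298 against 1038 and 1279. Mki67 was at 0 and 0 against 24.1 and 439, where 3 UMIs in hyperplasia would have been 44.2 and 47, so the value of tumour 1 could not be told from 0 in hyperplasia at this depth. In tumour 2 a single cell of 54163 UMIs held 212 of the 230 proliferation UMIs and 267 of the 280 progenitor UMIs. Without that cell the level of the progenitor list in tumour 2 was 560, below both hyperplasia values.

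On the other side, Csn3 was at 4375 and 3007 in hyperplasia and 748 and 194 in tumours, the only casein with over 20 UMIs there. Spp1, osteopontin, was at 2784 and 1378 against 12.1 and 0. The acute-phase regulators Cebpb and Cebpd were at 1974 and 2412 against 923 and 349, and at 1164 and 1785 against 269 and 349. Lcn2 was at 4434 and 5936 against 2010 and 439 and Trf at 2534 and 3947 against 1059 and 543. The groups did not overlap for these genes. Prlr overlapped between the groups, at 1399 and 94 against 721 and 12.9, and 1 cell held 93 of the 95 Prlr UMIs of hyperplasia 1, without which its level was 95.5. The 12.9 of tumour 2 was 1 UMI. The summed hormone-sensing list went from 1871 to 1421 in mouse 1 and from 392 to 116 in mouse 2, but without 1 cell the hyperplasia 1 level was 191, below that of tumour 1.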

How the data were processed

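The deposited tables give unnormalised UMI counts for each gene in each barcode of 13 libraries, and the authors made them with Cell Ranger 6.1.2 (per the submitters' processing notes) on mm10, as filtered matrices. The annotation release is not given in the sources used here. The members and gene lists were chosen with earlier results of these data known. The limits on genes and mitochondrial UMIs were those of the rule. Counts were summed over members of a library and divided by their UMIs. Named genes were those of the lists, the 10 of largest ratio (1 CPM added) to fibroblasts, and for each stage the 10 of largest ratio to the median of the other stages, with at least 20 UMIs and 2-fold over fibroblasts. The same rule over luminal-led cells of the 4 libraries with at least 10 members and the split by luminal and basal markers were added after the values were seen, as was the choice of the genes given for MPA+E. Shares were compared with the exact permutation test. Tests across genes had been planned from 10 members per library, and neither comparison had 2 libraries per group of that size. Doublets stayed in: the threshold Scrublet set by itself marked under 0.5% of barcodes in most libraries, so the highest scores at 0.8% per 1000 barcodes were left out as an alternative. The rule was tested on simulated data, where basal cells were given no Epcam, Krt8 or Krt18. It could thus not show how often basal cells pass. Hyperplasia and tumour were paired by mouse, since the study describes them as paired tissues and both tissues of a number have the same age. Placebo and MPA+E share only a number. Tools were Python 3.11.15, scanpy 1.11.5 and scipy 1.17.1. 1 gene that the rule would name is not reported here.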

Additional observations from a re-analysis of the deposited data

Results flagged for a closer look

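A signal outside the members was found in the lactation library. Its 7628 fibroblasts held milk protein UMIs at 802 CPM [795 to 809], and 84.2% of them had at least 1, against 13 CPM in involution, 35.6 in pregnancy, 0.0854 in the adult and 0 in both placebo libraries. Milk proteins are made by luminal epithelium, and the source of these UMIs was not tested.

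The same library held 13 deposited barcodes in which milk proteins took over 20% of UMIs, none of them a member, where puberty, adult, pregnancy and the 8 hormone and raGFP-Wnt1 libraries held 0 and involution 2.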

How the results depend on the processing

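For MPA+E against placebo the difference in members (19.3 per 10000) ranged from -0.124, without MPA+E replicate 1, to 38.7 when 1 library was left out. For tumour against hyperplasia the difference of -5.66 ranged from -17.2 to 5.89, the latter without hyperplasia replicate 2, and turned to 3.47 with all of Epcam, Krt8 and Krt18 detected and to 4.33 without basal-led members. With the replicate block the differences were 19.3 and -5.66 (p = 1 for both, exact permutation of signs). No p in either comparison could pass 0.05. The hormone-sensing ratio of adult to lactation members was 9.95 from 4 cells and 1 cell, with an interval of 3.39 to 48.3. The lactation cell was basal-led and held 3 hormone-sensing UMIs, and 1 of the 4 adult cells was basal-led. The ratio was 2.62 with cells thinned to 1000 UMIs and 28.3 with Esr1 and Pgr left out. The hormone-sensing share of luminal-led members moved to 100% in MPA+E 1 (from 95.5%) and 0% in pregnancy (from 2.56%) at a mitochondrial limit of 5%. The luminal-led share of members moved from 48.8% to 31.8% in pregnancy at that limit, and with all 3 rule markers detected to 80.9% in pregnancy, 71.4% in hyperplasia 2 (from 23.1%) and 100% in tumour 1 (from 93.8%), since basal-led members mostly lacked 1 of the 3. The causes of the other shifts were not tested. In all, 46 alternative values, some of them named above, kept their direction or stayed within the interval of the reported value.

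Other scalings, filters and tools for tests across genes, the replicate block among them, were not run, because those tests could not be made. The milk ratio of lactation to adult could not be given with all 3 rule markers, without basal-led members, with fibroblast levels subtracted or thinned, nor the hormone-sensing ratio in the first 2 of these cases, since lactation then kept no member or the level was 0. Depth limits the placebo cells most, with 2658 and 15638 UMIs.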

Other observations

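The limits on genes and mitochondrial UMIs alone kept out 111 barcodes that met the rest of the rule, 91 of them with over 10% mitochondrial UMIs and 39 with under 500 genes, and 98 of the 111 had more luminal than basal marker UMIs. In pregnancy 29 of 35 such barcodes were luminal-led, and the 35 held milk proteins at 57320 CPM. In MPA+E 1 the 20 such barcodes were all luminal-led, 14 had more hormone-sensing than secretory UMIs, and their hormone-sensing level was 5272 CPM, close to the 5100 of the luminal-led members. In lactation the 1 such barcode, luminal-led and with under 500 genes, gave 1279 UMIs to milk proteins.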
